A study of Mus musculus with 12 samples.

Results

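The unfolded protein response and the amino acid response were followed through 10 genes, Atf4, Ddit3, Chac1, Trib3, Asns, Sesn2, Ern1, Xbp1, Atf6 and Herpud1, that sense or answer ER stress and amino acid shortage. The list was given by name, and the genes were found by matching the Ensembl gene identifiers of the deposited tables to gene symbols, and all 10 were present among 50600 identifiers and passed the filter on low counts. RNA sequencing had been performed on medullary thymic epithelial cells (mTEC) from mice aged 6 to 8 weeks, sorted by their MHC class II into a high fraction (mTEC hi, 6 libraries) and a low fraction (mTEC lo, 6 libraries). In each fraction 2 libraries came from mice lacking Psmb11 (KO) and 2 from WT mice of the same B6.B6CB-Psmb11tm1Smta line. The other 2 libraries of each fraction carry a genotype in the title that the source name and strain contradict. They were used as mTEC hi or mTEC lo libraries and left out of the main genotype comparisons. Only alternative genotype fits, by the genotype of the title or of the source name, included them. Psmb11 encodes beta5t, the catalytic subunit of the thymoproteasome of cortical thymic epithelium. The allele is a targeted one, and no label restricts it to a cell type.

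Secretory cells match the load of proteins in the endoplasmic reticulum (ER) to its folding capacity through 3 membrane sensors: IRE1alpha (Ern1), which splices the mRNA of the transcription factor XBP1, ATF6, which is cut in the Golgi and enters the nucleus, and PERK (Eif2ak3), which phosphorylates eIF2alpha. Phosphorylated eIF2alpha, produced also by GCN2 when amino acids are scarce, by PKR and by HRI, lowers general translation and raises translation of ATF4, which is controlled largely at that step and less by its mRNA level. ATF4 and its partner CHOP (Ddit3) then induce genes of amino acid supply, redox balance and feedback control. Mature mTEC express and present an unusually wide range of tissue-restricted proteins, many of them secreted.

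The libraries held between 38791960 and 86793594 reads assigned to genes. Whether each library is a separate animal is not stated, and p-values therefore reflect library-to-library spread, part of which may be technical. Psmb11 itself was lower in the KO libraries, at 0.847 and 1.30 CPM (TMM-scaled reads relative to the library total) in KO mTEC hi against 10.3 and 7.54 CPM in WT mTEC hi, and at 1.63 and 1.17 CPM in KO mTEC lo against 12.2 and 7.51 CPM in WT mTEC lo. In the libraries with contradictory labels, Psmb11 was at 1.12 and 1.26 CPM where the title says KO and at 8.16 and 7.10 CPM where it says WT. Its level there thus followed the title. Of 12 genes that mark mTEC and their fractions, 7 were higher and 4 lower in mTEC hi. Aire averaged 1979 CPM in mTEC hi, against 17.6 CPM in mTEC lo, and Cd80 146.5 CPM in mTEC hi, against 7.94 CPM in mTEC lo, with log2 fold changes of 6.84 and 4.21. Ccl21a averaged 203.8 CPM in mTEC hi, against 3814 CPM in mTEC lo, and Krt5 716.7 CPM in mTEC hi, against 4516 CPM in mTEC lo, with log2 fold changes of -4.23 and -2.66. The markers named were picked after their values were seen. In GENCODE M21 (GRCm38) the protein-coding genes that differed most lie at chr2:119351229-119354381 on the plus strand (Chac1, ENSMUSG00000027313.3), chr2:152337422-152344032 on the minus strand (Trib3, ENSMUSG00000032715.9), chr4:132492032-132510501 on the minus strand (Sesn2, ENSMUSG00000028893.8) and chr11:5520659-5525893 on the plus strand (Xbp1, ENSMUSG00000020484.18). In bulk RNA, fewer cells of a type and less RNA per cell cannot be told apart.

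Between the fractions, members of the list differed in both directions. Chac1, Trib3 and Sesn2 were 6.80, 6.76 and 3.59 times higher in mTEC hi than in mTEC lo, and Asns and Herpud1 were higher by smaller amounts. Xbp1 and Ern1 were lower in mTEC hi in CPM, and Ern1 ranges overlapped in TPM. Atf4 mRNA was 0.783 times that of mTEC lo with TMM scaling, a difference that did not pass the test with library size alone. Of the 10 genes, 5 rose, 4 fell and 1 did not pass the test (edgeR quasi-likelihood test, Benjamini-Hochberg adjusted p threshold of 0.05 over 23923 genes), and with scaling by library size alone 6 rose and 2 fell. Across all genes tested, 82.1% were called (44.2% higher and 38.0% lower), so that the count of 9 of 10 is near that background. The median log2 fold change was 0.17 over the 10 genes and 0.08 over all genes tested, and the median size of change was 0.48 and 0.88.

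**Figure D1:**
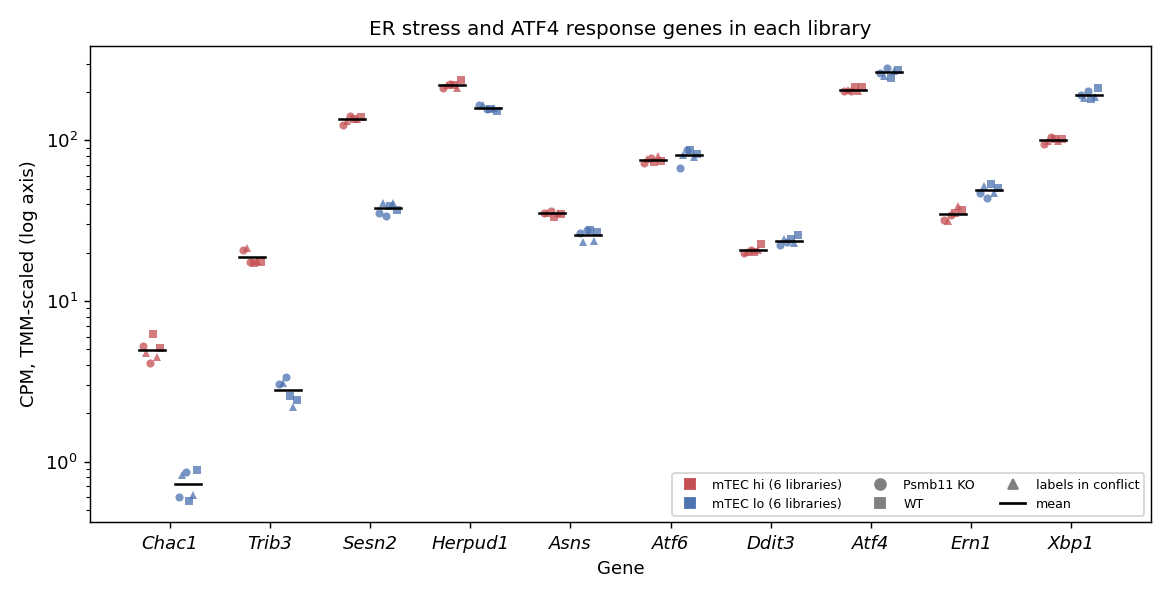
CPM of each gene on a log axis in the 6 mTEC hi (red) and 6 mTEC lo (blue) libraries, with marker shape for genotype and a bar for the mean. The ranges of Chac1, Trib3, Sesn2, Herpud1 and Asns lie higher in mTEC hi, those of Atf4, Ern1 and Xbp1 lie lower, and those of Atf6 and Ddit3 overlap.

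Atf4, the transcription factor through which eIF2alpha phosphorylation acts on genes, measured 201.7 CPM in the lowest, 204.2 in the median and 214.7 in the highest mTEC hi library, against 245.7, 266.7 and 283.6 CPM in mTEC lo. The fractions did not overlap, with mTEC hi below, as was so for 68.8% of all genes in one direction or the other. The log2 fold change was -0.35 (SE 0.0471, edgeR adjusted p = 2.185e-06) under TMM scaling, and -0.07 (edgeR adjusted p = 0.166) under scaling by library size alone, which moved the median of all genes from 0.08 to 0.37 and the share of called genes that were higher from 53.8% to 67.0%. In TPM the Atf4 ranges of the fractions overlapped, at 199.4 to 221.9 TPM in mTEC hi and 207.2 to 228.5 TPM in mTEC lo.

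Ddit3 encodes CHOP, the pro-apoptotic partner of ATF4. It ranged from 20.0 to 22.7 CPM with a median of 20.5 in mTEC hi, and from 22.2 to 25.6 CPM with a median of 23.7 in mTEC lo. The ranges overlapped. Its log2 fold change was -0.19 (SE 0.0522, edgeR adjusted p = 0.00263) with TMM scaling but 0.09 (edgeR adjusted p = 0.125) with library size alone, so that its sign changes with the scaling while it stays below the median of all genes (0.08 and 0.37) under both. Its value is also uncertain because 10.9% of its exonic bases overlap Gm4189, Mars or another Ddit3 identifier, and reads were counted without regard to strand.

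Chac1, a glutathione-degrading enzyme and a textbook ATF4 target, stood beside Trib3 at the top of the fold differences, and their intervals overlap. It measured 4.10 CPM in the lowest, 4.91 in the median and 6.25 in the highest mTEC hi library, against 0.572, 0.724 and 0.889 CPM in mTEC lo. Every mTEC hi library lay above every mTEC lo library. These values rest on 189 to 526 reads per mTEC hi library and 32 to 50 per mTEC lo library, so counting error is larger here than for the other genes. The fold was 6.80 (95% interval 5.37 to 8.61, edgeR adjusted p = 3.685e-11).

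Trib3, a pseudokinase that ATF4 and CHOP induce and that feeds back on both, measured 17.3, 17.7 and 21.5 CPM in the lowest, median and highest mTEC hi library, against 2.20, 2.81 and 3.37 CPM in mTEC lo. The gap between the fractions was wide compared with the spread within either. The log2 fold change was 2.76 (SE 0.102, edgeR adjusted p = 7.781e-14). Sesn2, a sestrin that senses leucine for mTORC1 and is induced by stress, measured 124.9, 136.0 and 142.0 CPM in mTEC hi, against 33.8, 38.0 and 40.6 CPM in mTEC lo. It too separated the fractions completely, with a log2 fold change of 1.84 (SE 0.0513, edgeR adjusted p = 1.754e-15).

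Asns encodes asparagine synthetase, the enzyme that makes asparagine from aspartate and a classic readout of amino acid limitation. It measured 33.4, 35.2 and 36.4 CPM in mTEC hi, against 23.4, 26.6 and 27.8 CPM in mTEC lo. All mTEC hi libraries were higher, and the log2 fold change was 0.44 (SE 0.0521, edgeR adjusted p = 5.323e-07).

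Ern1, the IRE1alpha sensor, measured 31.4, 34.9 and 39.1 CPM in mTEC hi, against 44.0, 48.7 and 53.8 CPM in mTEC lo. Each mTEC hi library was lower than each mTEC lo library in CPM, while the TPM ranges overlapped. The log2 fold change was -0.49 (SE 0.0568, edgeR adjusted p = 3.547e-07). Xbp1, the transcription factor whose mRNA IRE1alpha splices, measured 94.5, 100.6 and 104.8 CPM in mTEC hi, against 179.5, 189.2 and 211.5 CPM in mTEC lo. It was the only one of the 10 whose fractions did not overlap with mTEC hi lower in both CPM and TPM. Its log2 fold change was -0.94 (SE 0.0485, edgeR adjusted p = 6.926e-12). Gene-level counts do not separate spliced from unspliced Xbp1 mRNA.

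Atf6, the sensor that is itself a transcription factor, measured 72.5, 75.2 and 79.5 CPM in mTEC hi, against 67.6, 81.6 and 87.1 CPM in mTEC lo. The CPM ranges overlapped. In TPM they did not, and mTEC hi lay higher, at 16.48 to 18.37 TPM against 12.02 to 16.3 TPM in mTEC lo. Its log2 fold change was -0.09 (SE 0.0572, edgeR adjusted p = 0.146) with TMM scaling and 0.20 (edgeR adjusted p = 0.00289) with library size alone, so that its sign and call change with the scaling, while it too stays below the median of all genes under both. Leaving out KO replicate 1 of mTEC lo, the lowest library at 67.6 CPM, gave -0.14 (edgeR adjusted p = 0.0117).

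Herpud1, an ER membrane protein of ER-associated degradation that answers to several branches, measured 212.1, 221.0 and 238.5 CPM in mTEC hi, against 152.7, 157.4 and 166.9 CPM in mTEC lo. The fractions were apart, and the log2 fold change was 0.47 (SE 0.0455, edgeR adjusted p = 3.342e-08).

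Set against Atf4 reads of the same library, which needs no scaling between libraries, the median per 1000 Atf4 reads was 23.4 in mTEC hi and 2.69 in mTEC lo for Chac1. It was 87.0 in mTEC hi and 11.1 in mTEC lo for Trib3, and 646 in mTEC hi and 142 in mTEC lo for Sesn2. Asns had 173 in mTEC hi and 98.1 in mTEC lo, and Herpud1 had 1069 in mTEC hi and 609 in mTEC lo. Xbp1 had 480 in mTEC hi and 731 in mTEC lo. In all 6 of these genes the fractions did not overlap. Ddit3, Ern1 and Atf6 overlapped on this measure. The share of all genes that do not overlap on this measure was not computed. In CPM it was 68.8%, so the count says nothing particular about these genes. Atf4 was itself 0.783 times its mTEC lo level with TMM scaling, so these ratios lie above the folds in CPM. For Chac1 the medians differed 8.70-fold, against a fold of 6.80 with TMM scaling.

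**Figure D2:**
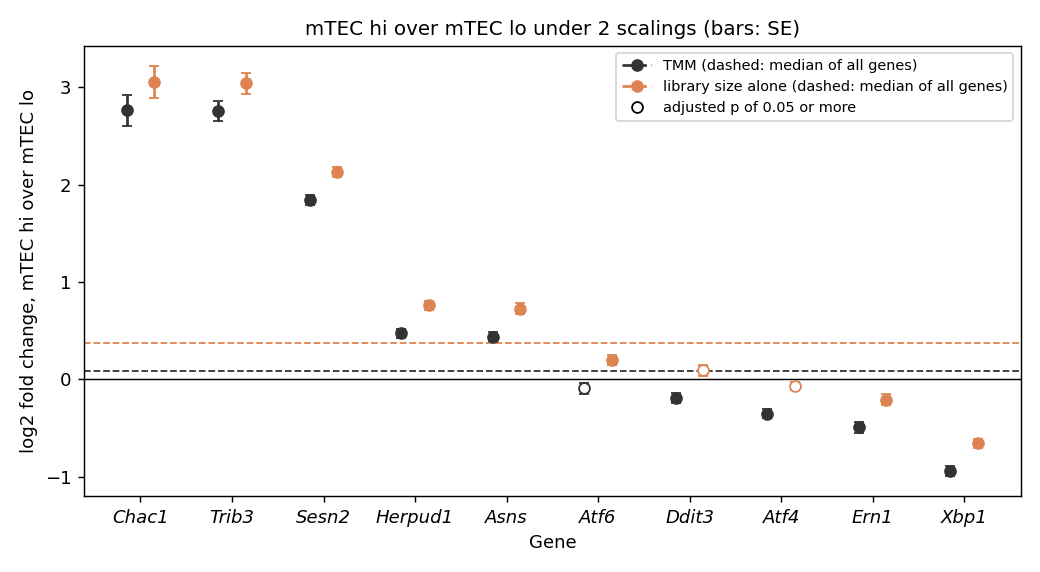
Log2 fold change of mTEC hi over mTEC lo for each gene, with SE bars, under TMM scaling (black) and library size alone (orange), and dashed lines for the median of all genes. Chac1, Trib3 and Sesn2 stand above both medians, at 2.77, 2.76 and 1.84 under TMM, while Atf6 and Ddit3 change sign between the scalings and lie below the median of all genes under both.

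Levels per length, in the deposited TPM, ran over a wide range. In mTEC hi the order was Herpud1 at 212.2 TPM, Atf4 at 210.9, Xbp1 at 93.7, Sesn2 at 64.8, Ddit3 at 44.2, Asns at 30.1, Atf6 at 17.2, Trib3 at 16.3, Ern1 at 8.70 and Chac1 at 5.19 TPM. Herpud1 and Atf4, and Atf6 and Trib3, overlapped across the 6 libraries, and all other neighbours in the order did not. In mTEC lo the order was Atf4 at 215.2 TPM, Xbp1 at 141.9, Herpud1 at 122.6, Ddit3 at 42.2, Asns at 18.1, Atf6 at 14.6, Sesn2 at 14.3, Ern1 at 9.59, Trib3 at 1.88 and Chac1 at 0.61 TPM. There Xbp1 and Herpud1 overlapped, as did Asns, Atf6 and Sesn2. Sesn2 and Trib3 thus stood higher in the order of mTEC hi than of mTEC lo.

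**Figure D3:**
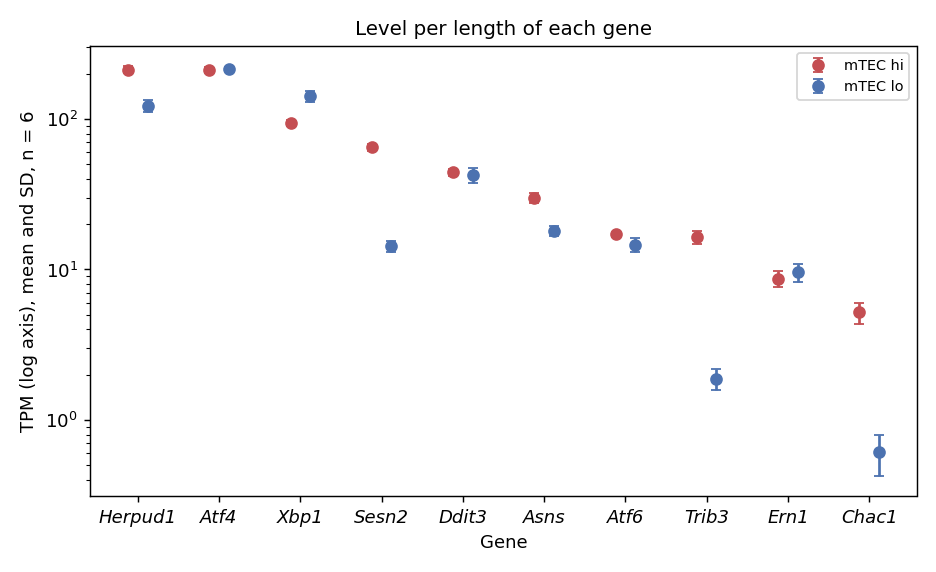
Mean TPM of each gene on a log axis in mTEC hi (red) and mTEC lo (blue), with SD over 6 libraries. Herpud1 and Atf4 are the most abundant in mTEC hi at 212.2 and 210.9 TPM, and Chac1 the least at 5.19 TPM.

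The promoters of the 3 genes with the largest rises, and of Herpud1, are shown because response elements of ATF4, ATF6 and XBP1 are short motifs of gene promoters. The sequences are RefSeq's (GRCm38.p6), on the strand of the gene, ending before the first transcribed base. Capitals mark matches to the letters searched. In Chac1 (chr2:119350992-119351228, plus strand) and Herpud1 (chr8:94386179-94386428, plus strand) they mark TTGCATCA, the reverse complement of the core TGATGNAA of the C/EBP-ATF composite element that ATF4 binds, and in Herpud1 also ATTGGGCCACG, a match to the ER stress element ERSE-II (ATTGG and CCACG with 1 base between them). The windows of Trib3 (chr2:152344061-152344310, minus strand) and Sesn2 (chr4:132510502-132510706, minus strand) hold no capital letters.
Chac1: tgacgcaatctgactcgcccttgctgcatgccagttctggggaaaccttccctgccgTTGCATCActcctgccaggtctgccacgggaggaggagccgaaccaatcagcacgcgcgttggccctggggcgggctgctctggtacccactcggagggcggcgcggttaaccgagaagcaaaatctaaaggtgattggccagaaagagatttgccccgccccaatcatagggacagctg
Trib3: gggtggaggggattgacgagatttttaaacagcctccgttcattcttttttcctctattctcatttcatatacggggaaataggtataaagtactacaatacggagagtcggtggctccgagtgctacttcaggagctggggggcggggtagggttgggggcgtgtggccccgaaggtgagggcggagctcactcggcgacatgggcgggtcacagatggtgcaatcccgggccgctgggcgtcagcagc
Sesn2: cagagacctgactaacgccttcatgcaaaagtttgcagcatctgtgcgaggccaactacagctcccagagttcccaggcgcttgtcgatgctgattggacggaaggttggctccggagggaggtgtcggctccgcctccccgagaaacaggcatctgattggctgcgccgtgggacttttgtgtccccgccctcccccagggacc
Herpud1: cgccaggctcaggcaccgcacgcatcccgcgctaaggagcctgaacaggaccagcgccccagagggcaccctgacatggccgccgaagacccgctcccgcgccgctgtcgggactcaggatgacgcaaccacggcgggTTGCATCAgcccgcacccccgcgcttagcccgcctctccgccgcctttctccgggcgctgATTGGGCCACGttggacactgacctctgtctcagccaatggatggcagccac

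Counting from the RefSeq start, the composite core lay at -193 to -186 in Chac1 and at -112 to -105 in Herpud1, and ERSE-II at -52 to -42 in Herpud1. The core was also present nearer the start, outside the printed sequences, in the windows of 2 more genes: TTACATCA at 15 to 22 in Trib3 and TGATGAAA at -23 to -16 in Asns. In windows from 250 bases before the start to 50 after it, on either strand, 4 of the 9 genes with a RefSeq promoter held TGATGNAA, against 4.51% of 27025 genes. ERSE-II was held by 1 of 9, against 0.0444% of genes. None of the 9 held ERSE (CCAAT and CCACG with 9 bases between them, 0.137% of genes), the core of the XBP1-binding element UPRE (TGACGTGG, 0.714%) or the cAMP response element (TGACGTCA, 2.03%). The letters CCACG are shared by ERSE and ERSE-II, and TGACGT by the UPRE core and the cAMP response element. ERSE was held by 8 of 17 promoters of ER chaperones and folding enzymes. The composite core was held by 5 of 9 promoters of aminoacyl-tRNA synthetases. It was held by 5 of 18 promoters of amino acid uptake and synthesis genes and by 1 of 17 of ER chaperones and folding enzymes. A match describes letters in a window and not binding, and its absence says only that these letters are not there.

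Within the wider pathways genes moved in both directions. Over all genes tested, 44.2% were called higher and 38.0% lower with TMM scaling. With library size alone 19254 of 23923 genes were called, 12907 of them higher. These shares are the background for the counts of each list below, and counts near them say nothing particular about a list. Among 23 genes of amino acid uptake and synthesis, 13 rose and 10 fell in mTEC hi (13 and 7 with library size alone), with a median log2 fold change of 0.68 against 0.08 over all genes. Slc7a3, a cationic amino acid transporter, averaged 20.4 ± 1.89 CPM in mTEC hi, against 1.18 ± 0.224 CPM in mTEC lo (mean ± SD of 6 libraries each), with a log2 fold change of 4.12. Cth, cystathionine gamma-lyase of cysteine synthesis, averaged 14.0 ± 0.857 CPM in mTEC hi, against 1.37 ± 0.179 CPM in mTEC lo, at 3.35. Slc1a4, a neutral amino acid transporter, went the other way at 24.7 ± 1.84 CPM in mTEC hi, against 156.9 ± 8.33 CPM in mTEC lo, at -2.67. Of 13 genes of tRNA charging and export, 2 rose and 5 fell with TMM scaling, and 8 rose and none fell with library size alone. The list's median lay 0.12 below that of all genes under either scaling. Iars (isoleucyl-tRNA synthetase) had a log2 fold change of 0.39. Xpot (the tRNA exportin) and Cars (cysteinyl-tRNA synthetase) had -0.37 and -0.35, which did not pass the test with library size alone.

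Of 18 regulators and secreted factors downstream of ATF4 and CHOP, 8 rose and 7 fell (11 and 6 with library size alone), with a median of 0.01. The stress hormones Gdf15 and Fgf21 rose: Gdf15 averaged 33.4 ± 2.41 CPM in mTEC hi, against 2.54 ± 0.335 CPM in mTEC lo, and Fgf21 258.0 ± 15.3 CPM in mTEC hi, against 28.8 ± 4.01 CPM in mTEC lo, with log2 fold changes of 3.71 and 3.17. Atf3, a stress and immediate early transcription factor, fell to 274.8 ± 52.6 CPM in mTEC hi, against 1798 ± 211 CPM in mTEC lo, at -2.71. Beside it, all 10 immediate early genes fell in mTEC hi, with a summed level of 4887 to 6645 CPM, against 21040 to 26330 CPM in mTEC lo. Their part in the result was not tested.

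Upstream of ATF4, of 17 genes of the eIF2alpha kinases and the eIF2 pathway, 4 rose and 9 fell with TMM scaling, and 8 rose and 4 fell with library size alone, with the list's median 0.30 below that of all genes under both. Eif2ak2 (PKR, activated by double-stranded RNA) had a log2 fold change of -1.78 and Eif2ak4 (GCN2, activated by uncharged tRNA) of -1.27, both lower under either scaling. Eif2b5, the catalytic subunit of the eIF2B exchange factor, had 1.31. Eif2ak3 (PERK), picked after its values were seen, averaged 37.6 ± 1.99 CPM in the mTEC hi libraries and 35.5 ± 2.29 CPM in mTEC lo and did not pass the test (edgeR adjusted p = 0.153).

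Among genes induced by ATF6 and XBP1, of 21 ER chaperones and folding enzymes, 11 rose and 5 fell with TMM scaling (16 and 3 with library size alone), with a median of 0.35. Sdf2l1, a partner of BiP, averaged 70.6 ± 3.72 CPM in the mTEC hi libraries and 24.7 ± 1.95 CPM in mTEC lo, a log2 fold change of 1.51. Creld2 and the oxidase Ero1lb had 1.46 and 1.05. Hspa5, which encodes BiP and was picked after its values were seen, averaged 2295 ± 51.5 CPM in the mTEC hi libraries and 1162 ± 152 CPM in mTEC lo, at 0.98.

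Of 30 genes of ER translocation and degradation, 6 rose and 15 fell with TMM scaling, and 16 rose and 6 fell with library size alone, with the list's median 0.19 below that of all genes under both. Derl3 and Sel1l, of the machinery that returns misfolded proteins to the cytosol, had 2.39 and 0.77, and Sec62 of the translocon had -0.81. Of 11 genes of ATF6 processing, the CREB3 family and the IRE1alpha and cell death partners, 4 rose and 6 fell (5 and 5 with library size alone), and the membrane-bound factors Creb3l4 and Creb3l2 had -3.33 and -1.17 and the kinase Map3k5 (ASK1) -1.25. Creb3l3, which averaged under 5 CPM, went the other way at 4.79 (SE 0.181, edgeR adjusted p = 1.02e-13). Among 8 paralogs, 3 rose and 5 fell (4 and 4 with library size alone). Chac2, a related glutathione-degrading enzyme, had 1.35, while Sesn1 and Trib1, relatives of Sesn2 and Trib3, had -0.996 and -1.10. The genes named from these lists, other than Eif2ak3 and Creb3l3, had SEs between 0.0408 and 0.121 and an edgeR adjusted p of at most 1.802e-06. These lists were drawn up from textbook knowledge with results on these data already known.

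**Figure D4:**
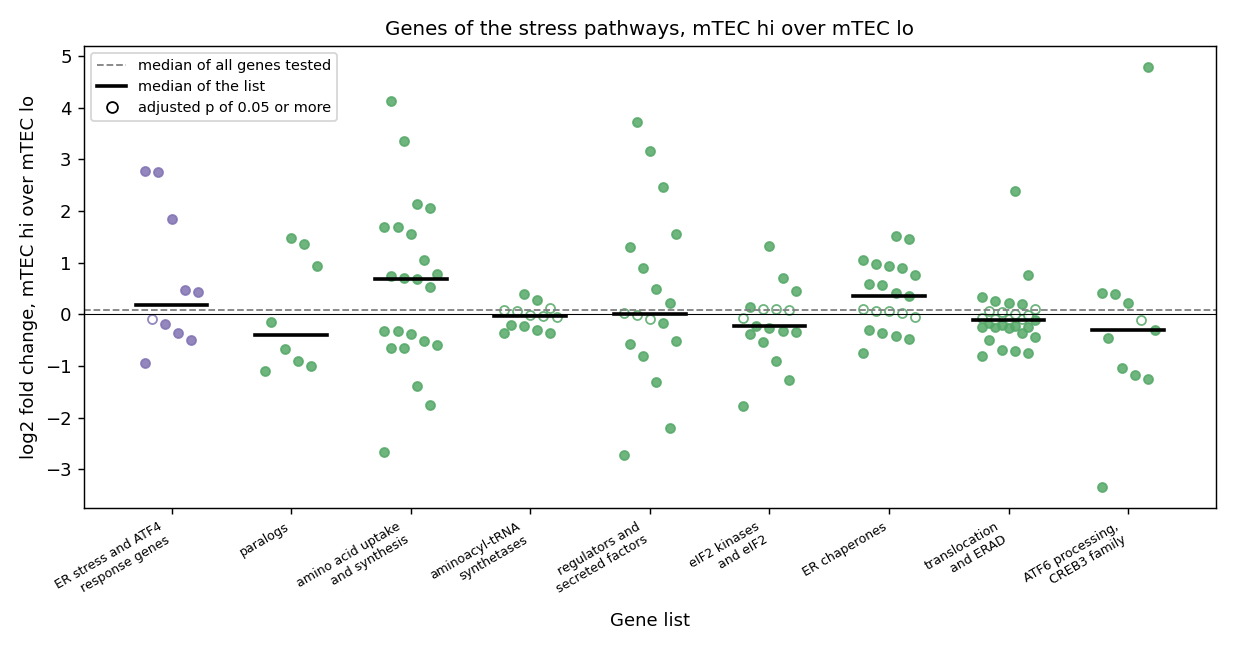
Log2 fold change of mTEC hi over mTEC lo, with TMM scaling, for each gene of 9 lists, with a bar for the list's median and a dashed line for all genes. The amino acid list has the highest median at 0.68 and the paralogs the lowest at -0.41. With library size alone all genes move up by about the same amount, and the medians of the tRNA synthetase, eIF2 and translocation lists then lie above 0 but still below the median of all genes.

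Markers of other cells moved between the fractions as well. The summed level of 10 dendritic cell and macrophage genes was 584.5 to 629.9 CPM in the mTEC hi libraries and 150.5 to 172.9 CPM in mTEC lo, and that of 10 thymocyte genes was 168.7 to 301.1 CPM in mTEC hi, against 49.2 to 117.1 CPM in mTEC lo. In the dendritic cell and macrophage list 8 of 10 rose and 2 fell, and in the thymocyte list 6 of 10 rose. The summed level of 9 B and plasma cell genes was 180.3 to 243.7 CPM in the mTEC hi libraries and 295.4 to 389.8 CPM in mTEC lo, where 5 rose and 1, Sdc1, which epithelium also expresses, fell. All 6 tuft cell genes fell, with sums of 245.8 to 366.8 CPM in the mTEC hi libraries and 1183 to 1812 CPM in mTEC lo. Each gene of these lists had reads in both fractions, and the part of these cells in the results was not tested.

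The difference between fractions was also measured within each genotype. Chac1 had log2 fold changes of mTEC hi over mTEC lo of 2.66 in KO and 2.92 in WT mice, and Trib3 of 2.57 in KO and 2.77 in WT. Sesn2 had 1.94 in KO and 1.84 in WT mice, Xbp1 -1.0005 in KO and -0.97 in WT, and Atf4 -0.44 in KO and -0.30 in WT. The test of the difference between these, an interaction in which 0% of 26642 genes were called, gave log2 differences between -0.27 (Chac1) and 0.17 (Atf6) and an edgeR adjusted p of 0.9998 for each of the 10 genes. Over all genes, 1174 had an unadjusted p under 0.05 and DESeq2 called 9.

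Between genotypes no change was detected in any of the 10 genes. In mTEC hi 1 of 26642 genes was called (0.00375%) and in mTEC lo 4 (0.0150%, of which 0.00375% higher and 0.0113% lower), none of them among the 10. DESeq2 called 3 genes in mTEC hi and 146 in mTEC lo, and leaving out single libraries moved the edgeR counts between 0 and 2 in mTEC hi and between 1 and 323 in mTEC lo, again with none of the 10. In mTEC hi the log2 fold changes of KO over WT lay between -0.27 (Chac1, 95% interval -0.85 to 0.31) and 0.14 (Trib3), all with an edgeR adjusted p of 1. In mTEC lo they lay between -0.20 (Ern1) and 0.35 (Trib3). With 2 libraries in each group the intervals remain wide, above all for Chac1 in mTEC lo, where 32 to 50 reads give an interval from -0.72 to 0.71.

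Trib3 in mTEC lo measured 3.04 and 3.37 CPM in KO libraries, against 2.57 and 2.43 CPM in WT libraries. The groups did not overlap, which held for 36.2% of all genes in either fraction, and the log2 fold change was 0.35 (95% interval -0.01 to 0.70, edgeR adjusted p = 0.449). Ern1 measured 47.1 and 44.0 CPM in KO mTEC lo, against 53.8 and 50.4 CPM in WT mTEC lo, at -0.20 (95% interval -0.39 to -0.01, edgeR adjusted p = 0.43). In mTEC hi Ern1 was 31.8 and 34.4 CPM in KO libraries and 35.5 and 36.7 CPM in WT libraries, and Atf4 was 201.7 and 203.0 CPM in KO libraries and 214.7 and 214.5 CPM in WT libraries. These KO values all lay below WT. For the libraries with contradictory labels, left out here, values follow where the title says KO and then WT. Trib3 in mTEC lo was at 2.20 and 3.07 CPM and Ern1 in mTEC hi at 39.1 and 31.4 CPM, the opposite order. Ern1 in mTEC lo was at 46.8 and 52.3 CPM and Atf4 in mTEC hi at 203.3 and 205.0 CPM, the same order. In all, 3 of 10 genes had groups that did not overlap in mTEC hi and 5 of 10 in mTEC lo, beside the background share of 36.2%.

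**Figure D5:**
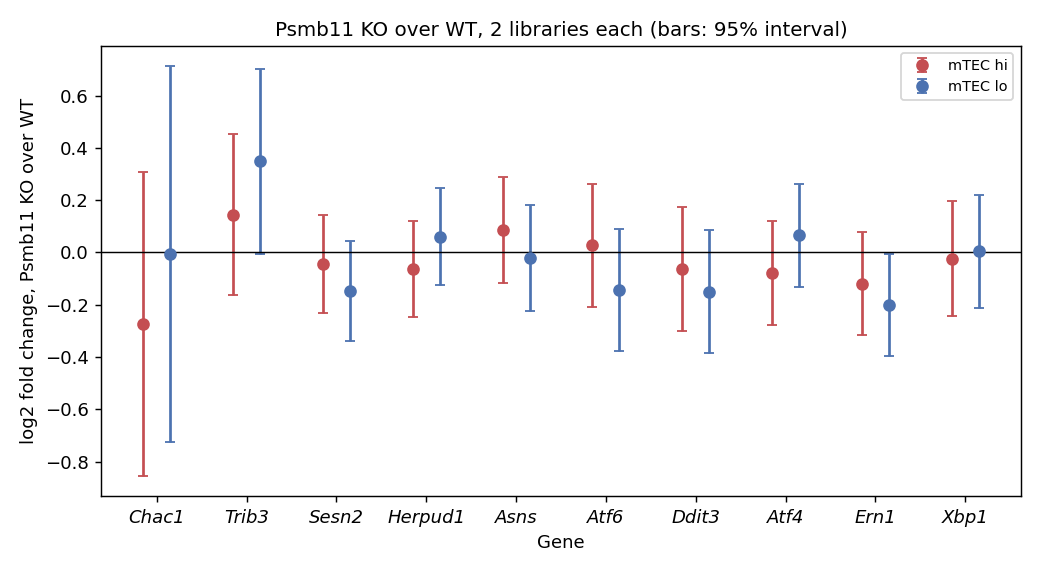
Log2 fold change of Psmb11 KO over WT for each gene in mTEC hi (red) and mTEC lo (blue), with 95% intervals, from 2 libraries of each genotype. No gene passed the test, and the intervals are widest for Chac1.

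None of the 8 pathway lists held a gene called between genotypes in either fraction. In mTEC lo, 10 of 30 genes of ER translocation and degradation had an unadjusted edgeR p under 0.05, against 11.3% of all genes. All of those were higher in KO, and over the whole list 20 fold changes were positive and 10 negative. None passed adjustment (lowest edgeR adjusted p = 0.222, Spcs1). Beside these, the summed thymocyte genes lay higher in KO libraries, with none of the 10 genes called, at 184.2 to 301.1 CPM in KO mTEC hi and 168.9 to 173.0 CPM in WT mTEC hi, and at 81.2 to 117.1 CPM in KO mTEC lo and 49.2 to 56.1 CPM in WT mTEC lo. All 10 thymocyte genes were positive in both fractions. Of them, 7 in mTEC hi and 9 in mTEC lo had an unadjusted edgeR p under 0.05, against 3.45% and 11.3% of all genes. The summed B and plasma cell genes were at 352.8 to 389.8 CPM in KO mTEC lo and 301.8 to 325.1 CPM in WT mTEC lo, and overlapped in mTEC hi. This sum includes Sdc1, which epithelium also expresses, at a log2 fold change of 0.26 in mTEC lo. In that fraction 7 of the 9 genes were positive and 2 negative. The summed tuft cell genes were at 1500 to 1584 CPM in KO mTEC lo and 1734 to 1738 CPM in WT mTEC lo, and overlapped in mTEC hi. The log2 fold change was negative for all 6 tuft cell genes in both fractions, for all 10 immediate early genes in mTEC hi and for 9 of them in mTEC lo. No gene of these 4 lists was called, and their part was not tested.

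The genes with the most similar pattern over the 12 libraries were taken as those with the smallest root mean square difference of log2 CPM, each gene centred on its own mean, among about 11062 protein-coding genes averaging 10 CPM or more. Atf4 was nearest to Wbp4 (0.0307) and Eif4a2 (0.0435), Herpud1 to Cd2bp2 (0.0312) and Smg8 (0.0478), and Sesn2 to Irf8 (0.0419) and Atp6v0a1 (0.0588). Chac1 was nearest to Sirt1 (0.194) and Cygb (0.200), at larger distances. Xbp1 was nearest to Nr1d2 (0.0494) and Taf9b (0.0623), and Asns to Fam118b (0.0438) and Sec23b (0.057). Ern1 was nearest to Atxn7l1 (0.0621) and Usp31 (0.064), Ddit3 to Agap1 (0.0457) and Slc23a2 (0.046), and Atf6 to Smcr8 (0.0469) and Ap3b1 (0.0495). Among the 10 genes themselves the closest pairs were Ddit3 and Atf6 (0.100), Asns and Herpud1 (0.107), and Atf4 and Ddit3 (0.116). Each of these pairs lay farther apart than either gene from its nearest gene outside the list. The distance includes the difference between fractions, so genes of similar fold change lie close, and shared regulation was not tested.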

How the data were processed

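Gene counts of 12 libraries of sorted mTEC were used as the authors deposited them (STAR per-gene read counts, the unstranded column, since both strand columns were equal), together with the RSEM expected counts and TPM in the files the authors deposited. The submitters' processing notes name CASAVA 1.8.2, STAR 2.5.1b, RSEM 1.2.28 and the build GRCh38. The identifiers are mouse ones, and 50376 of 50600 matched GENCODE M21 (GRCm38) by stable identifier. Summary rows that name no gene, 25.3% to 27.8% of reads in mTEC hi and 21.5% to 23.8% in mTEC lo, were left out. Expected counts were rounded. RSEM totals were 0.507 to 0.513 of the STAR totals in mTEC hi and 0.520 to 0.535 in mTEC lo, with no reason given in the labels. Both measures thus separated the fractions, and their part in the results was not tested.

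Genes were kept by filterByExpr (minimum count 10), scaled by TMM and tested with edgeR 4.0.16 (quasi-likelihood, R 4.3.3), adjusted over all genes tested. The comparison of fractions used 12 libraries with genotype class as a covariate, and genotype and interaction used the 8 libraries whose labels agree, in 1 fit. CPM were computed with TMM. Alternatives were DESeq2 1.42.0, RLE, library size alone, no filter, expected counts, other genotype labels, replicate blocks and leaving out each library. The fit was tested on simulated data. No 2 libraries were alike (lowest chi-square per gene 7.9).

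Apart from Eif2ak3, Hspa5 and Creb3l3, the named pathway genes were the 3 called genes of each list with the largest log2 fold change between fractions at a mean of at least 5 CPM. The genes, lists and tests were chosen with earlier results of these data known. The genes nearest in pattern to Trib3 are not reported here.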

Additional observations from a re-analysis of the deposited data

Results flagged for a closer look

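Ddit3 in WT replicate 3 of mTEC hi measured 22.67 CPM, against 20.0 to 20.83 CPM in the other 5 mTEC hi libraries. On log2 CPM, its gap to the nearest library was 0.676 of the whole range of the group, above Dixon's critical value for 6 samples. Of 20 groups looked at, 1 held such a library, and chance gives about 1 in 20.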

How the results depend on the processing

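Between fractions, requiring a change of at least 1.5-fold left 4 of the 10 genes called and 12958 genes in all, and library size alone reversed Ddit3 (0.093) and Atf6 (0.20). Leaving out each library gave 9 to 10 of the 10 genes and 19337 to 20129 genes. No alternative called any of the 10 genes between genotypes or in the interaction.

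Genes called between genotypes in mTEC hi were 3 with DESeq2, 42 with no filter, 3 with expected counts and 0 with the source name's genotype, and 0 to 2 without each library. In mTEC lo they were 9 with library size alone, 146 with DESeq2, 660 with no filter and 2 with the source name's genotype, and 1 to 323 without each library. The highest were 323 without KO replicate 2 and 263 without KO replicate 1 of mTEC lo, against 22 without WT replicate 3 and 18 without WT replicate 2. In the interaction they were 9 with DESeq2, 141 with no filter and 2 with expected counts, and 0 to 49 without each library. The cause of these moves was not tested.

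With the title number as a replicate block, 45 genes were called in mTEC lo (12 with the title's genotype as well) and 7 in the interaction. Pairing the fractions by title as a replicate block called 9 of the 10 genes and 19468 in all. Libraries of the fractions with matching titles (number and genotype) correlated at 0.009 to 0.117 after the mean of each fraction was subtracted. In 3 of 6 pairs the mTEC hi library was closest to its own match. These values do not settle whether matching titles are pairs, and the main fit did not use pairs.

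Signs of uncalled KO over WT differences reversed as follows. In mTEC hi the title's genotype gave -0.0028 for Trib3 and 0.027 for Ern1 (0.025 with the block too), the source name's -0.012 for Atf6, and the block 0.034 for Ddit3 and 0.10 for Xbp1. In mTEC lo Chac1 gave 0.0116 with RLE and 0.0121 with DESeq2, 0.17 with expected counts, 0.14 with the source name's genotype and 0.0399 with the block, and Asns 0.11 with expected counts and 0.016 with the block. In the interaction Ern1 gave -0.12 with the source name's genotype. Without each library in turn, mTEC hi gave -0.14 to 0.0196 for Ddit3, -0.097 to 0.049 for Xbp1, -0.14 to 0.044 for Sesn2 and -0.0202 to 0.076 for Atf6. Likewise mTEC lo gave -0.026 to 0.16 for Atf4, -0.31 to 0.37 for Chac1, -0.058 to 0.024 for Asns, -0.13 to 0.15 for Xbp1 and -0.34 to 0.035 for Atf6. The interaction gave -0.64 to 0.0375 for Chac1, -0.17 to 0.11 for Xbp1 and -0.0154 to 0.37 for Atf6.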
